A study of Mus musculus with 8 samples.

Results

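The 9 genes described here, Ifit1, Ifit2, Ifit3, Isg15, Usp18, Rsad2, Oasl2, Stat2 and Ifih1, respond to type I interferon. They are 9 of the 24054 genes in the expression table of mouse soleus (SOL) muscle, and they were chosen with earlier results of these data known. SOL RNA was sequenced from 4 muscle-specific IRF4 knockout (MI4KO) mice and 4 flox mice, with 1 library per mouse, to ask how loss of the transcription factor IRF4 changes gene expression in muscle. Both groups were male C57BL/6 mice that carried floxed Irf4 alleles, and MI4KO mice also carried Cre driven from the myosin light chain gene Myl1. The labels record a high fat diet for all 8 mice, whereas the methods leave the diet of these mice unnamed, and neither gives their age. Cre from Myl1 is selective for skeletal muscle fibers, so vessel, immune and connective tissue cells of an MI4KO muscle keep Irf4. Within each group, mice are numbered 1 to 4 from the lowest label number to the highest.

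Type I interferons are secreted proteins, released when a cell senses viral nucleic acid, that bind the receptor made of IFNAR1 and IFNAR2. The receptor's kinases JAK1 and TYK2 phosphorylate STAT proteins, STAT2 among them, which join IRF9 and bind a DNA element called the interferon-stimulated response element (ISRE), from which genes for antiviral proteins are transcribed. IRF4 belongs to the same family of transcription factors as IRF9 and is known mainly from lymphocytes, where it often binds DNA together with a partner of the ETS family. In uninfected tissue such as resting muscle, the response genes are transcribed at low levels.

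The values are CPM scaled by TMM, the trimmed mean of M-values, which assumes that the bulk of genes did not differ between libraries. Between 13417512 and 16384565 reads per mouse stand behind them, so that 3 reads correspond to values of 0.181 to 0.225, and each value of the 9 genes rests on 9 to 109 reads. The floor of 3 reads covers counting error only, while the intervals of fold changes below come from limma and cover the spread between mice. The summed level of 10 slow-fiber and muscle markers was 100025 to 117464 in flox mice and 98527 to 113282 in MI4KO mice. No other muscle was set beside it, so this sum cannot test SOL identity. Irf4 itself was at 0.686, 1.46, 1.58 and 1.68 in flox mice 1 to 4 and at 0.725, 0.840, 0.266 and 1.03 in MI4KO mice 1 to 4, and flox mouse 1 lay among the MI4KO mice. For Irf4 limma gave a log2 fold change of -0.45 (SE 0.20) with an unadjusted p of 0.040 and an adjusted p of 1.0. An exact two-sided permutation test over mice gave p = 0.114 for Irf4. The library of flox mouse 1 stood apart by its hepatocyte transcripts, whose summed level over 10 markers was 137 against at most 3.19 in the other 7 mice. The library of MI4KO mouse 3 stood apart by neutrophil transcripts, at 6.38 for the summed markers against 1.43 to 2.36 in the others, of which Mpo was at 0 in every mouse. For the response genes and named pathway genes whose call changed when either of these mice was left out, the value without it is given.

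The promoters of 4 of the genes are shown because Ifih1, Ifit1 and Ifit3 had the lowest p-values of the 9 and Isg15 held the most copies of the ISRE. Each stretch runs 5′ to 3′ on the gene's own strand from 250 bases before the start site to 50 bases after it, from RefSeq on GRCm38.p6. Capitals mark every match to the core of the ISRE on either strand, which is GAAA, any 2 bases and GAAA again, or TTTC, any 2 bases and TTTC where the match is on the opposite strand.

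Ifih1, chr2:62646206-62646505, minus strand: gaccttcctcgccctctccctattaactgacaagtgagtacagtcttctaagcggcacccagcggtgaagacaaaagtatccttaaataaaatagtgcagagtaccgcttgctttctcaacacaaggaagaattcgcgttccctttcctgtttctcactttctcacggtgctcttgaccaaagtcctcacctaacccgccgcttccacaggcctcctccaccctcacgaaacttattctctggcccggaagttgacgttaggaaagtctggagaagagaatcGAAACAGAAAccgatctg
Ifit1, chr19:34640639-34640938, plus strand: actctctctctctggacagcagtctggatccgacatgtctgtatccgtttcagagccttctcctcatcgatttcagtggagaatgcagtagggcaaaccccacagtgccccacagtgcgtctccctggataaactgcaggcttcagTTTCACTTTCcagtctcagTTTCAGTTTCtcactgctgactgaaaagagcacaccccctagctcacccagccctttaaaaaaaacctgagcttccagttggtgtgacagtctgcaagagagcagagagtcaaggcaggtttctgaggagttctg
Ifit3, chr19:34583279-34583578, plus strand: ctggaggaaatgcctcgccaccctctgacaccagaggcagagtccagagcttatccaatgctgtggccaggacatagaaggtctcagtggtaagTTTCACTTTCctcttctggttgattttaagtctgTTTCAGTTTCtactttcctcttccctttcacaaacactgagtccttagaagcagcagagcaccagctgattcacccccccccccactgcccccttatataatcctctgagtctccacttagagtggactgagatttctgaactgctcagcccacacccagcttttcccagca
Isg15, chr4:156200769-156201068, minus strand: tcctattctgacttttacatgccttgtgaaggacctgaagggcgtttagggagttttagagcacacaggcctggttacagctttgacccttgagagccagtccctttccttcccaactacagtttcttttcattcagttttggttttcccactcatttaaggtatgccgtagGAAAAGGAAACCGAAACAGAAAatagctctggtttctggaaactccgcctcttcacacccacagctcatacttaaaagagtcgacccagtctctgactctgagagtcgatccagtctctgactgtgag

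Of the 8 members with a promoter in this table, which does not list Usp18, 6 held these ISRE letters (75%), where 3.44% of the 32851 promoters in the table and 3.6% of the tested genes with a promoter did. Ifit1 and Ifit3 each held 2 separate copies, with first bases 104 and 85 bases before the start site in Ifit1 and the farther one 156 bases before it in Ifit3. Isg15 held 3 copies that overlap each other, beginning 78, 72 and 66 bases before the start. Rsad2 held 1 copy, at 120 bases before the start, and Stat2 held 1, at 222 before it, while the copy in Ifih1 lay 33 bases after the start. The letters were not found in the windows of Ifit2, which has 2 listed start sites, and of Oasl2. The letters GGAA, any 2 bases and GAAA, a core of the element bound by ETS and IRF proteins together, were found for Stat2 alone among the 8, where they overlap its ISRE match, against 2.72% of all promoters. The log2 fold changes of MI4KO against flox had a median of -0.29 in the 6 members with the ISRE letters and -0.28 in the 2 without. Among all tested genes with a promoter the corresponding medians were -0.03 for the 322 genes with the letters and -0.01 for the 8634 genes without. A match in these letters is a description of the sequence and not a shown binding site.

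Per kilobase of exon in the annotation, Ifit3 and Isg15 were the highest of the 9 genes in flox SOL, at 2.77 ± 0.416 and 2.12 ± 1.22 (SD, n = 4). Ifit2 at 1.27, Rsad2 at 1.06, Stat2 at 1.03 and Ifit1 at 0.896 followed on this scale. Ifih1 at 0.582, Usp18 at 0.483 and Oasl2 at 0.457 were the lowest. In none of the 8 neighbouring pairs of this order were the levels apart by more than their SDs. All 9 genes passed the filter for testing, which asks that 4 or more of the 8 mice reach a value of 1.

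The IFIT proteins bind foreign RNA and block its translation, and their genes lie side by side on chromosome 19. Ifit1 (chromosome 19 of GRCm38, 34640871 to 34650009, plus strand) was at 3.68, 2.43, 2.03 and 1.38 in flox mice 1 to 4 and at 1.31, 1.62, 1.40 and 1.27 in MI4KO mice 1 to 4. The MI4KO mice were close together, and 3 of the 4 flox mice lay above all of them, with flox mouse 4 inside their range. The mean of Ifit1 was 2.38 ± 0.967 in flox mice and 1.40 ± 0.156 in MI4KO mice (SD, n = 4), a ratio of 0.587. Its log2 fold change was -0.45 (SE 0.19, 95% interval -0.86 to -0.05), with an unadjusted p of 0.031 and an adjusted p of 1.0 by limma. The permutation test over mice, exact and two-sided, gave p = 0.0857. Fold changes here are taken on log2(value + 1), which understates the change of genes at such low levels. The call of Ifit1 depended on single mice. Without flox mouse 1 its log2 fold change was -0.28 with an unadjusted p of 0.115 by limma. Its unadjusted p by limma was also over 0.05 without MI4KO mouse 1 (0.059), MI4KO mouse 4 (0.065) or flox mouse 2 (0.066).

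Ifit3 (chromosome 19, 34583531 to 34588731, plus strand) was at 5.24, 3.75, 5.18 and 5.17 in flox mice 1 to 4 and at 1.81, 3.75, 2.73 and 4.77 in MI4KO mice 1 to 4. Flox mice other than mouse 2 were nearly equal, MI4KO mice varied widely, and the groups overlapped. The means were 4.83 ± 0.726 and 3.27 ± 1.28 (SD, n = 4), with a log2 fold change of -0.49 (SE 0.20, unadjusted p = 0.028 and adjusted p = 1.0 by limma). In the exact two-sided permutation test Ifit3 had p = 0.0857. Without MI4KO mouse 1, the lowest, the log2 fold change was -0.31 with an unadjusted p of 0.091 by limma. Leaving out flox mouse 1 gave -0.46 (unadjusted p = 0.065), and leaving out MI4KO mouse 3 gave -0.45 (unadjusted p = 0.051, both by limma). With flox mouse 1 and MI4KO mouse 3 left out together, Ifit3 was at -0.41 (unadjusted p = 0.100 by limma).

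Ifit3 values are uncertain on their own because Ifit3b, a near-identical neighbouring copy, shares sequence with it. Of the 1696 windows of 50 bases, the read length, in the longest Ifit3 transcript, 869 (51.2%) also occur in Ifit3b, so that the authors' counting could have divided such reads between the genes. In Ifit1 7.13% of the windows also occur in Ifit1bl1 or Ifit1bl2, in Isg15 3.96% occur in another gene, and in the other 6 members none does. Ifit3b was at 4.86, 4.51, 2.03 and 2.55 in flox mice 1 to 4 and at 2.76, 2.13, 2.66 and 2.24 in MI4KO mice 1 to 4. In flox mice 3 and 4 Ifit3 was high and Ifit3b low, and in flox mouse 2 Ifit3b exceeded Ifit3. When both were summed before taking the logarithm, flox mice were at 10.1, 8.25, 7.20 and 7.72 and MI4KO mice at 4.57, 5.88, 5.38 and 7.01. On this sum every MI4KO mouse lay below every flox mouse. The summed level was 8.32 ± 1.26 in flox and 5.71 ± 1.02 in MI4KO mice (SD, n = 4), and its log2 fold change of -0.48 (SE 0.14, 95% interval -0.77 to -0.18) was close to that of Ifit3 alone with a smaller error. For the sum, the exact permutation test (two-sided) gave p = 0.0286, below which this design cannot go. On it limma gave an unadjusted p of 0.00402 and an adjusted p of 1.0. Without flox mouse 1 and MI4KO mouse 3 the log2 fold change of Ifit3 plus Ifit3b was -0.37, with an unadjusted p of 0.027 by limma.

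Ifit2 (chromosome 19, 34550694 to 34576419, plus strand) was at 5.92, 5.90, 4.20 and 3.86 in flox mice 1 to 4 and at 4.13, 2.91, 3.12 and 5.50 in MI4KO mice 1 to 4. The groups overlapped through flox mice 3 and 4 and MI4KO mice 1 and 4. Its log2 fold change was -0.29 (SE 0.18, 95% interval -0.68 to 0.10) and did not pass the test (unadjusted p = 0.130, adjusted p = 1.0 by limma).

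**Figure D1:**
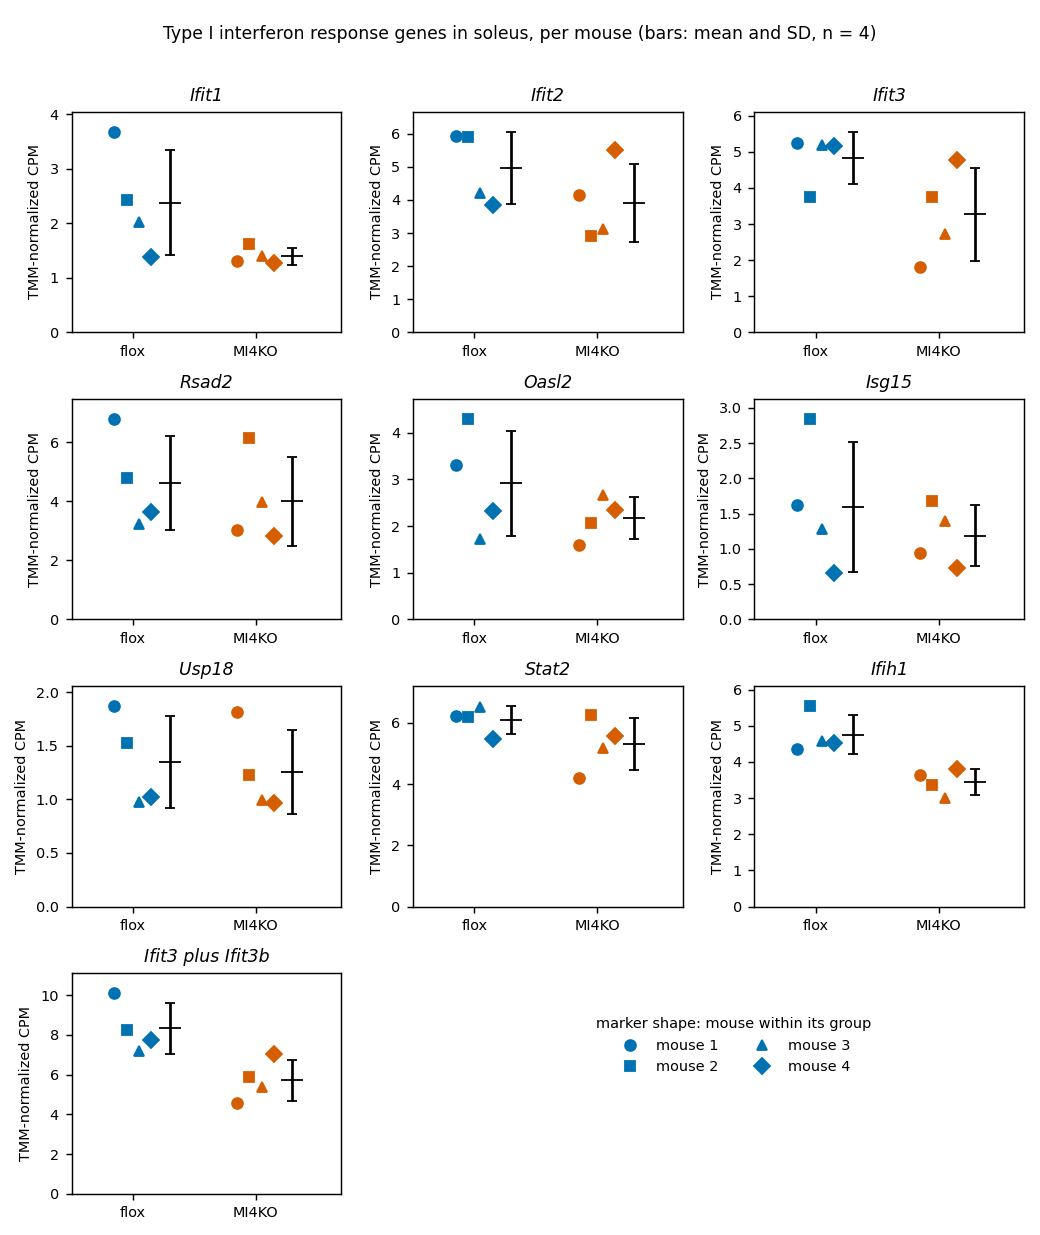
Values of the 9 response genes and of Ifit3 plus Ifit3b in each SOL library, in TMM-normalized CPM on linear axes that start at 0, with marker shapes for the mouse within its group and bars for the mean and SD of 4 mice. The groups are separate for Ifih1 and for the sum of Ifit3 and Ifit3b, and they overlap in the other panels.

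Ifih1 encodes MDA5, a cytosolic sensor of long double-stranded RNA. The gene (chromosome 2, 62595798 to 62646255, minus strand) was at 4.36, 5.55, 4.58 and 4.52 in flox mice 1 to 4 and at 3.63, 3.36, 2.99 and 3.81 in MI4KO mice 1 to 4. All 4 MI4KO mice lay below all 4 flox mice. The mean was 4.75 ± 0.539 in flox and 3.45 ± 0.355 in MI4KO mice (SD, n = 4), a ratio of 0.725. The log2 fold change of Ifih1 was -0.37 (SE 0.12, 95% interval -0.63 to -0.11), with an unadjusted p of 0.0086 and an adjusted p of 1.0 by limma and p = 0.0286 in the exact two-sided permutation test. By unadjusted p, Ifih1 ranked 39 of the 11865 genes tested. Its fold change was -0.35 without flox mouse 1 and MI4KO mouse 3, and its unadjusted p stayed under 0.05 in each of the 19 alternative settings and samplings tried, the highest being 0.0335 by limma.

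Stat2, which encodes a part of the complex that binds the ISRE, lies on chromosome 10 (128270559 to 128292849, plus strand). It was at 6.23, 6.17, 6.53 and 5.46 in flox mice 1 to 4 and at 4.21, 6.27, 5.19 and 5.56 in MI4KO mice 1 to 4. Values overlapped, and MI4KO mouse 1 was the lowest. The log2 fold change of -0.18 (SE 0.12, 95% interval -0.45 to 0.09) did not pass the test (unadjusted p = 0.168, adjusted p = 1.0 by limma).

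Rsad2 encodes viperin, an enzyme that makes a chain-terminating nucleotide, and Oasl2 encodes a protein related to the oligoadenylate synthetases. Rsad2 (chromosome 12, 26442746 to 26456452, minus strand) was at 6.80, 4.79, 3.23 and 3.64 in flox mice 1 to 4 and at 3.05, 6.14, 3.99 and 2.84 in MI4KO mice 1 to 4. Flox mouse 1 and MI4KO mouse 2 were the highest of the 8, so each group had a high mouse. The log2 fold change of Rsad2 was -0.17 (SE 0.22, 95% interval -0.65 to 0.31, unadjusted p = 0.458 and adjusted p = 1.0 by limma). Without flox mouse 1 it was 0.0025. Oasl2 (chromosome 5, 114896936 to 114912234, plus strand) was at 3.30, 4.30, 1.73 and 2.33 in flox mice 1 to 4 and at 1.60, 2.07, 2.66 and 2.36 in MI4KO mice 1 to 4. Flox mice 1 and 2 were above all MI4KO mice and flox mice 3 and 4 were within their range. The log2 fold change of Oasl2 was -0.27 (SE 0.20, 95% interval -0.70 to 0.16, unadjusted p = 0.197 and adjusted p = 1.0 by limma).

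ISG15 is a ubiquitin-like protein that is attached to other proteins during the response, and USP18 removes it and also restrains the interferon receptor. Isg15 (chromosome 4, 156199424 to 156200818, minus strand) was at 1.62, 2.84, 1.28 and 0.656 in flox mice 1 to 4 and at 0.943, 1.68, 1.40 and 0.725 in MI4KO mice 1 to 4. Flox mice included both the highest and the lowest value of the 8. The log2 fold change of Isg15 was -0.20 (SE 0.24, 95% interval -0.72 to 0.31, unadjusted p = 0.405 and adjusted p = 1.0 by limma). Without flox mouse 2 it was 0.0058. Usp18 (chromosome 6, 121245906 to 121270917, plus strand) was at 1.87, 1.53, 0.975 and 1.02 in flox mice 1 to 4 and at 1.81, 1.23, 0.997 and 0.967 in MI4KO mice 1 to 4. The groups covered nearly the same range. The log2 fold change of Usp18 was -0.06 (SE 0.18, 95% interval -0.44 to 0.32, unadjusted p = 0.747 and adjusted p = 1.0 by limma). It was 0.10 without flox mouse 1 and MI4KO mouse 3. Gm44148, a noncoding gene on the opposite strand, overlaps Usp18, and whether the counting used the strand is not given in the sources used here.

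All 9 fold changes were thus below 0, between -0.49 and -0.06 with a median of -0.27, where 56.2% of all genes tested were below 0 and their median was -0.01. Of the 9 genes, 3 were lower at an unadjusted p under 0.05 by limma and none was higher, where 2.95% of all genes tested were lower and 0.413% higher at that limit. Because the 9 were chosen with earlier results of these data known, such counts are descriptions and not independent support. Of the 9, 1 had separate values in the 2 groups, lower in MI4KO mice, where 1.7% of all genes tested had separate values in that direction and 0.371% in the other. By limma on log2(value + 1), none passed the limits that the study's methods set for a changed gene. These limits are a p under 0.05 together with a change of 1.5-fold or more, and 0.219% of the genes tested passed them. The study applied its limits with edgeR, so this share is not the share the study found. On recovered reads 1 of the 9, Ifit1, passed these limits both by edgeR's quasi-likelihood test, as did 0.548% of all genes, and by DESeq2, as did 0.43%. At an unadjusted p under 0.05 alone, 2 of the 9 were lower by edgeR, against 1.97% of all genes, and 3 by DESeq2, against 1.33%. No gene of the 11865 tested had an adjusted p under 0.05 by limma, by edgeR's quasi-likelihood test or by DESeq2. An unadjusted p under 0.05 was reached by 399, 363 and 248 genes, or 3.36%, 3.06% and 2.09%. Each of these shares is below the 0.05 that this limit gives when no gene differs. The direction over all genes depended on the scaling: 350 of the 399 limma genes were lower with the deposited values, and 132 of 395 were lower when reads were scaled by library size alone. With library size scaling all 9 genes were still below 0 and Ifih1 alone had an unadjusted p under 0.05, where 1.11% of all genes were lower at that limit. The median of all genes moved from -0.01 to 0.03 with that scaling. Without flox mouse 1 and MI4KO mouse 3, 8 of the 9 were below 0 and Ifih1 alone had an unadjusted p under 0.05, where 4.71% of all genes were lower at that limit in the same fit. Among the 5 mice in the higher range of mouse numbers, flox mice 2 to 4 and MI4KO mice 3 and 4, the fold changes of all 9 were below 0. They ran from -0.42 for Ifih1 to -0.05 for Oasl2, where the median of all genes was 0.01. Ifih1 alone had an unadjusted p under 0.05 by limma, where 2.8% of all genes were lower at that limit. Ifit1 was at -0.32 (unadjusted p = 0.166) and Ifit3 at -0.29 (unadjusted p = 0.214, both by limma). The lower range holds 1 flox mouse and gave no value of its own.

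**Figure D2:**
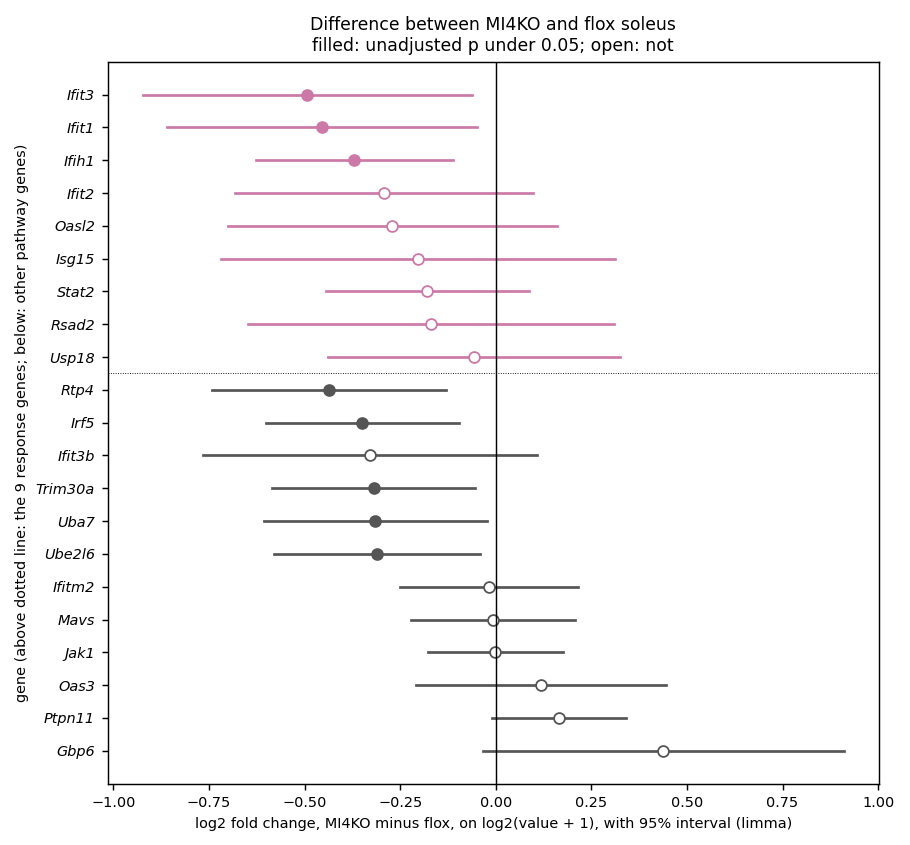
Log2 fold changes of MI4KO against flox SOL on log2(value + 1) with 95% intervals from limma, for the 9 response genes above the dotted line and for named pathway genes below it, where filled points have an unadjusted p under 0.05. All 9 response genes lie left of 0, from Ifit3 at -0.49 to Usp18 at -0.06, and the intervals of Ifit3, Ifit1 and Ifih1 do not reach 0.

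The 9 genes did not vary alike between mice of a group. Reads of Ifih1 spread by a chi-square of 0.729 per degree of freedom within groups and those of Stat2 by 1.23, where counting error alone gives about 1. Usp18 was at 1.89, Ifit1 at 3.02, Oasl2 at 3.69, Ifit3 at 4.51, Ifit2 at 4.55 and Isg15 at 4.94 on this measure, and Rsad2 was the most variable at 8.45. The median over the 9 genes was 3.69, against 1.75 over the 2655 tested genes whose mean values lay in the same range, and the 75th percentile of those genes was 2.77. Summing Ifit3 with Ifit3b gave 2.81.

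**Figure D3:**
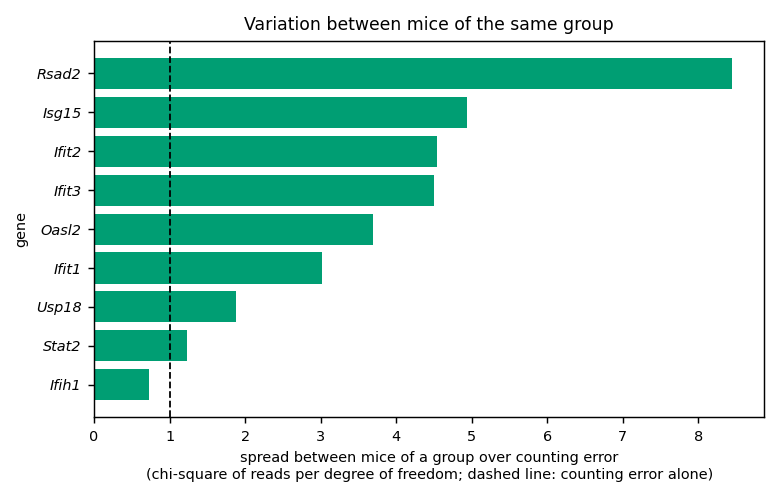
Spread of the recovered reads between mice of the same group for each of the 9 genes, as the chi-square per degree of freedom over both groups, with a dashed line where counting error alone would lie. Bars run from 0.729 for Ifih1 to 8.45 for Rsad2.

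Flox mouse 1 had the highest value of 5 of the 9 genes, flox mouse 2 of 3 and flox mouse 3 of 1, and no MI4KO mouse was highest for any. The lowest values were in MI4KO mouse 1 for 3 genes, MI4KO mouse 4 for 3, MI4KO mice 2 and 3 for 1 each and flox mouse 4 for 1. Averaged over the 9 genes as log2(value + 1), flox mice 1 to 4 were at 2.32, 2.29, 1.97 and 1.89 and MI4KO mice 1 to 4 at 1.72, 1.96, 1.81 and 1.87. Flox mice 1 and 2 were set off above the rest on this average, while flox mice 3 and 4 lay next to the MI4KO mice. Over the 36 pairs of the 9 genes, Pearson's r across the 8 mice ran from -0.35 to 0.79 with a median of 0.46, and 33 pairs were above 0. After each group's mean was taken out the median was 0.26 and 26 pairs were above 0, so part of this likeness was the difference between groups. The points of each pair come from the same 8 libraries and share their scaling.

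Outside the 9 genes, the 10 tested genes whose pattern over the 8 mice was most like the average of their standardized values were Cyb5, Ddx58, Mdfic, Zfp763, Acsl5, Dact2, Dpysl2, Wrb, Pcdh1 and Cfb, with Pearson's r from 0.96 down to 0.88. Ddx58 encodes RIG-I, the other main cytosolic RNA sensor beside MDA5, and it was the one gene of these 10 in the pathway list. It was at 5.67, 5.90, 4.50 and 4.59 in flox mice 1 to 4 and at 3.77, 4.33, 4.12 and 4.71 in MI4KO mice 1 to 4, with r = 0.95 over 8 mice and 0.92 within groups. Like the 9 genes on average, it was highest in flox mice 1 and 2. Its log2 fold change was -0.23 (SE 0.12, unadjusted p = 0.079 and adjusted p = 1.0 by limma). Cyb5, for cytochrome b5, had the highest r, 0.96, and was also highest in flox mouse 1, at 12.9, and in flox mouse 2, at 11.8. The choice of these 10 genes rested on the mice used: without flox mouse 1, the library with hepatocyte transcripts, 1 of them, Cyb5, stayed among the 10 most similar and their r over 7 mice ran from 0.79 to 0.96. Without MI4KO mouse 3 as well, none of them did. The r of Cyb5 and Ddx58 without flox mouse 1 was 0.96 and 0.92, and that of Acsl5, Dact2, Dpysl2, Wrb and Cfb lay between 0.79 and 0.83. The median r was 0.30 over the 74 tested genes of the pathway list and -0.07 over all 11856 tested genes outside the 9, and without flox mouse 1 these medians were 0.46 and -0.10.

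**Figure D4:**
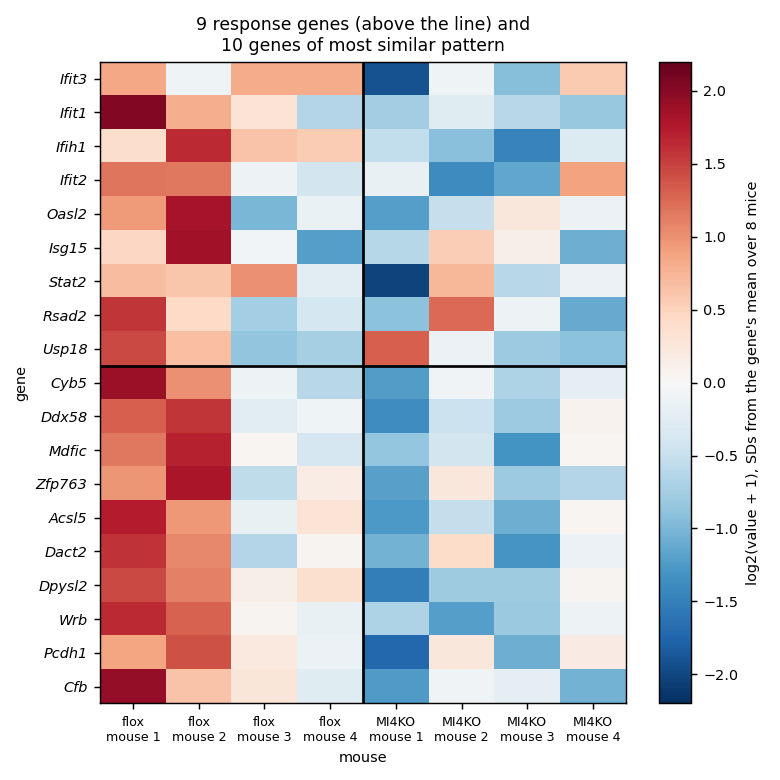
Heat map of the 9 response genes, above the line, and the 10 genes of most similar pattern, below it, in each of the 8 SOL libraries, as SDs of log2(value + 1) from the gene's mean over all mice. Red is concentrated in flox mice 1 and 2, which had the highest value for 8 of the 9 genes.

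The rest of the pathway was read from a list of 111 genes, of which 74 were tested, 35 were below the filter and 2 had no row. This list, too, was written with earlier results of these data known. Of the 74, 5 were lower at an unadjusted p under 0.05 by limma and none was higher, against 2.95% and 0.413% of all genes tested. Their fold changes were below 0 for 56 (75.7%), with a median of -0.11. The 10 interferon genes of the list, which are the ligands, were all below the filter. In the SOL of all 8 mice 9 of them, including Ifnb1 and Ifng, had no read, and Ifnk had 1 read in 1 mouse. At this depth a count of 0 allows a value of up to 0.181 to 0.225 per mouse.

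Of the 8 receptor and kinase genes, none passed in either direction. The receptor chain Ifnar1 was at 23.9 ± 1.09 in flox and 23.4 ± 1.15 in MI4KO mice (SD, n = 4), with a log2 fold change of -0.03 (95% interval -0.20 to 0.14). Jak1, the highest gene of this role, had -0.0010 (95% interval -0.18 to 0.18). Of the 8 transcription factors, 1 was lower at an unadjusted p under 0.05, where 2.95% of all genes tested were. This was Irf5, a factor that acts downstream of Toll-like receptors in myeloid cells, which was at 6.17, 8.19, 7.50 and 6.12 in flox mice 1 to 4 and at 5.15, 5.11, 4.99 and 5.74 in MI4KO mice 1 to 4. Its groups did not overlap, and its log2 fold change was -0.35 (SE 0.12, unadjusted p = 0.011 and adjusted p = 1.0 by limma). None of the 6 tested genes for sensing nucleic acid passed, and Mavs, the adaptor of RIG-I and MDA5, had -0.01 (95% interval -0.22 to 0.21).

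Both tested genes of ISG15 conjugation were lower at an unadjusted p under 0.05, against 2.95% of all genes tested. Ube2l6, the conjugating enzyme, was at 6.23, 7.28, 6.08 and 4.81 in flox mice 1 to 4 and at 4.72, 5.11, 4.59 and 4.35 in MI4KO mice 1 to 4, a log2 fold change of -0.31 (SE 0.12, unadjusted p = 0.028 and adjusted p = 1.0 by limma). Uba7, the activating enzyme, had a log2 fold change of -0.32 (SE 0.13, unadjusted p = 0.036 and adjusted p = 1.0 by limma). Values of each overlapped between the groups. Without flox mouse 1 the unadjusted p of Ube2l6 was 0.059, and without MI4KO mouse 3 that of Uba7 was 0.084, by limma. Isg15 itself, given above, did not pass. Of the 23 other antiviral effectors tested, 2 were lower at an unadjusted p under 0.05 and 19 were below 0, against 2.95% and 56.2% of all genes tested. Rtp4, a chaperone of cell surface receptors, was at 3.93, 4.37, 3.23 and 3.35 in flox mice 1 to 4 and at 1.81, 2.72, 2.79 and 2.66 in MI4KO mice 1 to 4. Its groups were separate, with a log2 fold change of -0.44 (SE 0.14, unadjusted p = 0.0088 and adjusted p = 1.0 by limma). Trim30a, a member of the tripartite motif family, had separate groups too, with flox mice between 2.49 and 2.93 and MI4KO mice between 1.81 and 2.33, and a log2 fold change of -0.32 (SE 0.12, unadjusted p = 0.022 and adjusted p = 1.0 by limma). Ifitm2, the highest effector, had -0.02 (95% interval -0.25 to 0.22).

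Neither tested gene of the OAS family passed, nor did any of the 4 negative regulators, of which Ptpn11 was the highest with a log2 fold change of 0.17 (95% interval -0.01 to 0.34). None of the 20 tested genes of the list for interferon gamma passed. Gbp6, a GTPase induced by that interferon and the highest gene of that list on the mean of all 8 mice, though below H2-D1 in flox mice alone, was at 114, 94.7, 61.2 and 74.2 in flox mice 1 to 4 and at 109, 96.6, 181 and 87.9 in MI4KO mice 1 to 4. MI4KO mouse 3 was the highest by far, and the log2 fold change of 0.44 (95% interval -0.03 to 0.91, unadjusted p = 0.066 and adjusted p = 1.0 by limma) was the highest of the 74. It was 0.22 without MI4KO mouse 3 (unadjusted p = 0.199), 0.59 without flox mouse 1 (unadjusted p = 0.021) and 0.36 without both (unadjusted p = 0.018, all by limma).

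Cell type markers that could bear on these genes were summed per mouse. In bulk muscle, fewer cells of a type and less RNA per cell cannot be told apart. For 10 macrophage markers the flox mice spanned 46.4 to 58.2 and the MI4KO mice 48.7 to 66.1, with overlap. For 4 markers of plasmacytoid dendritic cells, which release type I interferon, the flox mice spanned 0.748 to 0.832 and the MI4KO mice 0.194 to 0.532, with no overlap. These sums rest on 45 and 25 reads in all, and Siglech, a defining marker, had 0 to 4 reads per mouse. Each of the 4 markers taken alone overlapped between the groups, and all were below the filter for testing. For 7 endothelial markers the flox mice spanned 373 to 450 and the MI4KO mice 287 to 395. Fibroblast markers ran from 297 to 393 in flox and from 241 to 386 in MI4KO mice, adipocyte markers from 235 to 296 and from 178 to 262, and erythroid markers from 400 to 580 and from 367 to 456. Lymphocyte markers were at 0.600 to 0.832 and at 0.465 to 1.03. Of the 43 marker genes tested, 5 were lower at an unadjusted p under 0.05 by limma and none was higher, against 2.95% and 0.413% of all genes tested. These were the endothelial Cdh5 (-0.29) and Kdr (-0.37), the adipocyte gene Cfd (-0.65), the erythroid Hba-a1 (-0.28) and the hepatocyte gene Cyp2e1 (-0.96), as log2 fold changes with an adjusted p of 1.0 by limma. Without MI4KO mouse 3 the unadjusted p of Kdr was 0.059 and that of Cfd was 0.073 by limma. Cyp2e1 was at 11.5 in flox mouse 1, the library with hepatocyte transcripts, against 1.80 to 2.43 in the other flox mice. Groups were separate for Cyp2e1 and for the endothelial Egfl7, lower in MI4KO mice for both, where 1.7% of all genes tested were separate in that direction. MI4KO mouse 1, which had the lowest value of 3 of the 9 response genes, was also the lowest of the 8 mice for endothelial, fibroblast, adipocyte and erythroid markers. MI4KO mouse 4 was likewise lowest for 3 response genes. It was the highest MI4KO mouse for endothelial, fibroblast and adipocyte markers, at 395, 386 and 262. The part of these cells in the fold changes of the response genes was not tested.

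**Figure D5:**
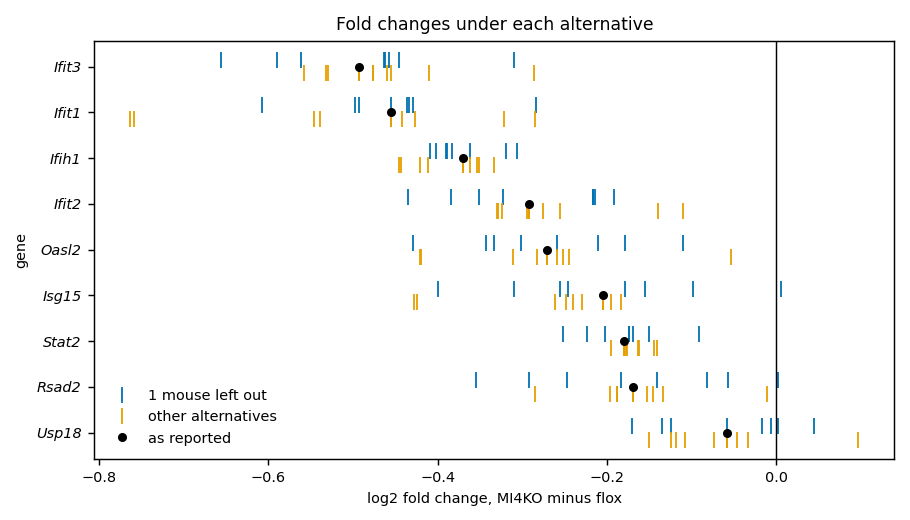
Log2 fold changes of the 9 response genes as reported (black points), with 1 mouse left out (blue lines) and under the other alternatives (orange lines), as MI4KO minus flox. Ifih1 stays between -0.45 and -0.31, while Rsad2, Isg15 and Usp18 reach or cross 0.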

How the data were processed

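The sources are 8 SOL poly(A) RNA-seq libraries from a stranded kit, sequenced as single reads of 50 bases. Per the submitters' processing notes and the paper's methods, bcl2fastq 2.17, Bowtie2 2.1.0 and RSEM 1.2.15 were used with mm10, the same build as GRCm38, and expression was normalized by TMM. The authors deposited a signal per gene and mouse, which is a TMM-normalized CPM value with no exact counts, and added columns of fold change, p-value and FDR from their comparison, which were not used. Whole reads were recovered from the step of each mouse, and 100% of non-zero values came out whole within a tolerance of 0.05 reads.

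Genes that reached a value of 1 in 4 or more of the 8 mice entered the test, limma 3.58.1 (R 4.3.3) with the trend option on log2(value + 1), two-sided, with Benjamini-Hochberg adjustment over all 11865 genes. Single values were compared by an exact permutation test (Python 3.11.15). As alternatives, recovered reads were tested with edgeR 4.0.16 (quasi-likelihood) and DESeq2 1.42.0, because the deposited values are not counts. Other alternatives were the pseudocount of 0.5, no filter, scaling, trend, robust fit, the range of mouse numbers, Ifit3 summed with Ifit3b, and each mouse left out. Leaving out flox mouse 1 and MI4KO mouse 3 together, and leaving out either for genes outside the 9, was chosen after seeing the data. The fits were tested on simulated data. The limma p-values set the difference between groups against the spread between these mice, 1 library each, which limma moderates over all genes.

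The members and lists were chosen with earlier results of these data known. Named genes are the 9 members, Irf4, Ifit3b, up to 10 pathway genes with the smallest p among those under 0.05, the highest gene of each role and the 10 genes of most similar pattern; Ifnar1, Ifnb1, Ifng, Mpo, H2-D1, Siglech, Cdh5, Kdr, Cfd, Hba-a1, Cyp2e1 and Egfl7 were added after their values were seen. Of the genes this rule names, 1 is not reported here. Ifit3b, Ifit1bl1, Ifit1bl2 and Adgre1 were matched by older symbols. Positions are from GENCODE M21 and promoters from RefSeq, matched by symbol. Gastrocnemius samples were not analysed here.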

Additional observations from a re-analysis of the deposited data

Results flagged for a closer look

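Of 66 groups of 4 mice examined for a single value far from the rest, 3 were past Dixon's critical value. Chance alone exceeds that value in about 1 of 20 groups, so 3 of 66 is about the number that chance gives. Ifit3 was at 3.75 in flox mouse 2, against 5.17 to 5.24 in the other flox mice. The sum of Ifit3 and Ifit3b in flox mouse 2 was 8.25, inside the 7.20 to 10.1 of the other flox mice. Rtp4 was at 1.81 in MI4KO mouse 1, against 2.66 to 2.79 in the other MI4KO mice. Oas3 was at 2.40 in flox mouse 4, against 1.68 to 1.73 in the other flox mice.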

How the results depend on the processing

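The 172 fold changes of the 9 genes under the alternatives are refits of the same mice and are not independent. The median over all genes ran from -0.04 to 0.03 in these settings. Of the 172, 167 were below 0, and 149 kept both direction and side of the unadjusted limit of 0.05. The 5 that turned were Rsad2 without flox mouse 1 (0.0025), Isg15 without flox mouse 2 (0.0058) and Usp18 without MI4KO mouse 4 (0.0018), without flox mouse 1 (0.044) and without flox mouse 1 and MI4KO mouse 3 together (0.097). With 1 mouse left out the lowest values were -0.36 for Rsad2, -0.40 for Isg15 and -0.17 for Usp18. Ifih1 kept its call throughout, between -0.45 and -0.31. Ifit1 lost it in 7 of 19 alternatives, with fold changes of -0.44 to -0.28, and Ifit3 in 9 of 20, with -0.53 to -0.29. A call was gained by Ifit2 without MI4KO mouse 4 (-0.44, unadjusted p = 0.026 by limma). Oasl2 gained one without flox mouse 3 (-0.43, unadjusted p = 0.041 by limma). The members lower at the unadjusted limit numbered 1 with library size scaling, in the higher range of mouse numbers and with both doubtful mice left out. The shares of all genes lower at that limit in these fits were 1.11%, 2.8% and 4.71%. Leaving out 1 mouse gave 1 to 3 members, where 1.8% to 4.57% of all genes were lower. The 1 remaining gene without MI4KO mouse 1 or without flox mouse 1 was Ifih1. Of the members, 1 passed the study's limits by edgeR and by DESeq2, Ifit1, and 0 to 1 did with 1 mouse left out. That member was Ifit3 without MI4KO mouse 4 (-0.66) or flox mouse 2 (-0.59), and Ifit1 without flox mouse 4 (-0.61). Pathway genes at the unadjusted limit numbered 8 with both doubtful mice left out and 3 to 8 with 1 left out, being 8 without MI4KO mouse 3 or 4 and 3 without flox mouse 2, while the share of all genes at that limit was 3.36% as reported, 5.37% with both left out, 5.01% and 5.21% without MI4KO mouse 3 or 4 and 3.08% without flox mouse 2. Over all genes, those past the limits numbered 41 with a pseudocount of 0.5, 13 with robust estimation, 65 by edgeR, 51 by DESeq2, 161 in the higher number range, 41 with both doubtful mice left out and 19 to 58 with 1 left out, the 58 without MI4KO mouse 4. Irf4 missed the limit in 10 of 19 alternatives, with library size scaling (-0.42), median-of-ratios scaling (-0.44), edgeR (-0.86), DESeq2 (-0.87) and the number range as a covariate (-0.41), and without MI4KO mouse 1 or 3 or flox mouse 2, 3 or 4, and ran from -0.60 to -0.31 with 1 mouse left out. The cause was not tested. No paired analysis was possible because the labels give each mouse a number of its own. Each value rests on 9 to 109 reads, so counting error adds to the spread between mice, and it weighs most on Isg15 and Usp18, which had the fewest reads.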
